A study of Homo sapiens with 22 samples.

Results

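TGFB1, the ligand that gives the TGF-beta pathway its name, was added as recombinant protein to WM989 melanoma cells, and 2 of the clusters that the treated cells formed are compared here. The authors class cluster 4 as primed for drug resistance and cluster 3 as not primed. Members were the TGFB1-treated cells whose deposited label gives one of these clusters in the treatment experiment. Cluster 4 held 3254 of them, 1548 in replicate r1 and 1706 in replicate r2. Cluster 3 held 3801, 2182 in r1 and 1619 in r2. Together these 7055 cells were part of 11034 TGFB1-treated cells, of 40021 cells in the treatment experiment and of 54001 cells in the 3 single-cell experiments. The comparison asks which genes changed alike in both clusters and which genes only the cells of cluster 4 reached.

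The treatment experiment used WM989 A6-G3, a line grown from 1 clone of a BRAF-mutant human melanoma, in which every cell carried a lentiviral lineage barcode. Cells of a culture were split at random over 4 treatments: no addition (control), recombinant TGFB1, the TGF-beta receptor inhibitor LY2109761 (TGFBRi) and the PI3K inhibitor GDC-0941 (PI3Ki). Each treatment has 2 libraries of 3′ single-cell RNA-seq. GEO's labels call the 2 libraries of a treatment Mix and Primed, the cell labels call them r1 and r2, and the study's methods describe parallel replicates. Which of r1 and r2 is Mix was not settled. Cluster 10, which the authors also class as primed, took a larger share of cells in r2 than in r1 of every treatment. The shares in r1 and r2 were 2.14% and 4.31% in control, 0.535% and 0.908% with TGFB1, 2.26% and 4.32% with TGFBRi, and 0.570% and 1.18% with PI3Ki. The replicates thus differed in make-up, and the cause was not tested. Replicate was a block in the fits, so p-values rest on the spread left after the shift between r1 and r2 was removed. That spread was pooled over all sums of a fit, and the clusters of TGFB1-treated cells came from the same 2 libraries. It is therefore no measure of the spread between independent cultures. Other cells used for comparison were untreated WM989 cells of the first experiment (r1 and r2), untreated cells of the clonal melanoma line WM983B E9-D5 (1 library), and 12 ATAC-seq libraries of WM989 cells. Library totals in the treatment experiment ran from 70239657 to 122420544 unique molecular identifiers (UMIs), with 79933636 and 84821016 in the TGFB1 libraries.

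TGF-beta ligands bring together the receptor kinases TGFBR2 and TGFBR1, which phosphorylate SMAD2 and SMAD3. These enter the nucleus with SMAD4 and raise transcription of matrix genes and of the pathway's own brakes, such as SMAD7, SKIL and PMEPA1. In melanoma, the melanocyte lineage program is run by SOX10 and MITF, and a state with low SOX10 and high EGFR, AXL and matrix genes is known for tolerance to BRAF inhibitors. Rare cells of this kind, called primed, occur in untreated WM989 cultures.

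The labels of both clusters were checked against marker genes. Levels are given as CPM, the count of a gene scaled to the same total of UMIs in each population, from UMIs summed over the cells of a population, with r1 before r2, or written r1/r2. The melanoma markers SOX10, MITF, PMEL, MLANA and S100B were all detected in every population, at a summed level of 527 and 560 CPM in cluster 4, 3663 and 3611 CPM in cluster 3, and 4653 and 4704 CPM in control cells outside the primed clusters 4 and 10. The primed markers EGFR, AXL, NT5E and NGFR summed to 151 and 212 CPM in cluster 4, 22.3 and 33.0 CPM in cluster 3 and 16.9 and 33.2 CPM in control cells. Leukocyte markers were CD68 and little else in all populations, and the epithelial markers were nearly all KRT18, at 183 and 162 CPM in cluster 4 against 83.7 and 74.6 CPM in cluster 3. The endothelial marker PECAM1 reached 12.04 and 8.42 CPM in cluster 4, where endothelial markers summed to 12.5 and 9.43 CPM, against 0.801 and 0.632 CPM in cluster 3 and 0.417 and 0.322 CPM in control cells. The part of such cells in the results was not tested. Fibroblast markers summed to 16.3 and 15.5 CPM in cluster 4 and 30.2 and 26.9 CPM in cluster 3, and the drop was that of LUM, at 12.8 and 10.03 CPM in cluster 4 against 28.5 and 25.6 CPM in cluster 3 and 28.9 and 29.4 CPM in control cells. The authors called cluster 4 primed because cells with known primed markers lay there, so the primed markers are no independent check of that label.

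Both clusters were products of the TGFB1 libraries. Cluster 3 took 40.3% of TGFB1 cells in r1 and 28.8% in r2, against 1.35% and 1.60% of control cells and under 1% in the TGFBRi and PI3Ki libraries. Cluster 4 took 28.6% and 30.4% of TGFB1 cells and 5 and 6 control cells. With TGFBRi, 0 of 5229 and 0 of 6273 cells were in cluster 4, which allows a share of up to 0.0574% and 0.0478%. The clusters also differed in phase, depth and mitochondrial reads. In cluster 3, 7.97% and 9.70% of cells were called G2/M, against 28.5% and 28.3% in cluster 4 and 29.4% and 30.2% in control cells. Median UMIs per cell were 11095 and 11204 in cluster 4, 13091 and 12978 in cluster 3 and 18526 and 21929 in control cells. The median mitochondrial percentage was 7.77 and 7.79 in cluster 4, 10.5 and 10.3 in cluster 3, and 11.02 and 10.9 in control cells. The part of these differences in the results below was not tested, except that the comparisons among cluster 4, cluster 3 and control cells were also run on cells called G1 and on cells thinned to 5000 UMIs. In all, 194 cell barcodes occurred in more than 1 library, and 10 cells of clusters 3 and 4 carried a barcode found in both TGFB1 libraries.

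Counts were summed per population and replicate and fitted with edgeR's quasi-likelihood model with the replicate as a block. A gene was called at a Benjamini-Hochberg adjusted p under 0.05 over all 18010 genes tested. Cluster 4 was higher than cluster 3 in 4101 genes (22.8%) and lower in 4178 (23.2%). Cluster 3 was higher than control cells in 2435 genes (13.5%) and lower in 2450 (13.6%), or 1261 and 1344 without TGFB1 r1. Cluster 4 was higher than control cells in 5139 genes (28.5%) and lower in 5122 (28.4%). The authors drew the clusters on these same counts, so the calls describe how the clusters differ and are no independent evidence that they differ. The comparisons with control share the same control sums.

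Genes with at least 10 CPM in cluster 4, cluster 3 or control cells, 8562 in all, were put in classes by these calls and by fitted log2 differences of at least 1. A gene was shared where both clusters differed from control by at least 1 and from each other by no more than 0.5. It was stepped where cluster 3 moved from control and cluster 4 moved further from cluster 3 in the same direction, and primed-only where cluster 4 moved from both while cluster 3 stayed within 0.5 of control. Few genes were shared at these limits: 22 shared up and 5 shared down. Stepped genes numbered 137 up and 14 down, and primed-only genes 227 up and 290 down. A further 18 genes were higher in cluster 3 than in both other populations (a peak in cluster 3) and 59 were lower there (a dip), and 7790 genes fell in no class. With a minimum log2 difference of 0.58 in place of 1 there were 80 shared up and 41 shared down genes, and the other classes grew too. The limits of the classes are limits on the differences that the scatter plots, so the gaps between classes in it are set by them.

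**Figure D1:**
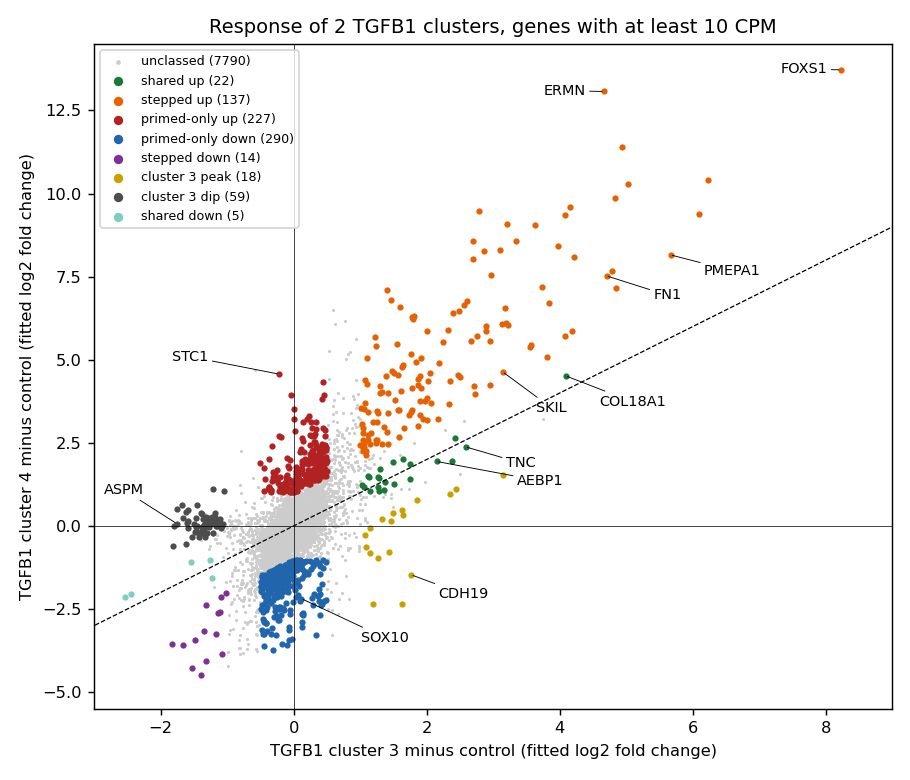
Each point is 1 of 8562 genes, with the fitted log2 difference of cluster 3 from control cells on the x axis and that of cluster 4 from control cells on the y axis, coloured by response class, and the dashed line marks an equal change in both clusters. The 22 shared up genes lie along that line, the 137 stepped up genes lie above it to the right, and the 227 primed-only up and 290 primed-only down genes stand above and below 0 near the vertical axis. FOXS1 and ERMN had no counts in control cells, so their fitted positions are not bounds.

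The genes that both clusters raised alike included matrix genes, a cytoskeletal gene and a transcription factor. Over the 22 shared up genes the median log2 difference from control was 1.36 in cluster 3 and 1.48 in cluster 4, against -0.03 and -0.09 over all 8562 genes, and the median difference between the clusters was 0.12. COL18A1, a basement membrane collagen and the parent of endostatin, is at chromosome 21, 45405165 to 45513720 (hg38, GENCODE 44). It stood at 23.5/23.6 CPM in cluster 4, 17.6/17.7 in cluster 3, 7.13/4.79 in the other TGFB1 cells (those outside clusters 3, 4 and 10) and 1.07/0.978 in control cells. Both clusters were far above control and close to each other. Its log2 difference from control was 4.09 ± 0.14 (SE) in cluster 3 (edgeR adjusted p = 5.6e-18) and 4.52 ± 0.14 in cluster 4.

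TNC, the matrix glycoprotein tenascin-C, stood at 19.4/26.3 CPM in cluster 4, 24.4/28.1 in cluster 3, 12.5/12.9 in other TGFB1 cells and 3.30/5.51 in control cells. Cluster 3 was above cluster 4 in each replicate, and the clusters did not differ by the test (-0.21 ± 0.13, adjusted p = 0.2). AEBP1, a secreted collagen-binding protein, was also higher in cluster 3, at 643/683 CPM against 561/576 in cluster 4 and 151/144 in control cells. SORBS2, a cytoskeletal adaptor, reached 126/116 CPM in cluster 4 and 98.1/110.3 in cluster 3 from 16.7/21.7 in control cells. RUNX1, a transcription factor, went from 15.2/17.4 CPM in control cells to 46.7/57.2 in cluster 3 and 64.5/69.2 in cluster 4. MGP, a matrix inhibitor of calcification, was at 56.9/47.6 CPM in cluster 3, 34.3/45.6 in cluster 4 and 8.90/11.4 in control cells. In 20 of the 22 shared up genes the other TGFB1 cells lay above control cells and below cluster 3 in both replicates, beside 1053 of all 8562 genes. The class was chosen for cluster 3 above control in the same sums, which favours this order.

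The 5 shared down genes were VGF, SLC7A11, ACSS1, GAS2L3 and MET. VGF, a secreted neuropeptide precursor, fell from 784/1341 CPM in control cells to 132/243 in cluster 3 and 134/387 in cluster 4, with 645/1399.9 in the other TGFB1 cells. Replicates differed widely in each population, and both clusters lay below control in each. SLC7A11, the cystine importer, fell from 9.43/12.2 to 1.77/2.26 and 2.38/2.90 CPM. GAS2L3, a cytokinesis gene, went from 39.4/40.6 to 13.3/14.6 and 17.7/20.3 CPM, but its difference between clusters changed sign among G1 cells.

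Many genes that cluster 3 raised were raised further in cluster 4. Over the 137 stepped up genes, the median log2 difference from control was 1.90 in cluster 3 and 4.53 in cluster 4, and cluster 3 reached a median of 17.2% of cluster 4's level. In 45 of them cluster 3 itself held at least 10 CPM, and in 17 it held under 1 CPM. The other TGFB1 cells lay between control cells and cluster 3 in both replicates for 111 of the 137, beside 1053 of all 8562 genes. Here too the choice of genes raised in cluster 3 favours this order. PMEPA1, a transmembrane brake on SMAD signaling at chromosome 20, 57648392 to 57711536 (hg38, GENCODE 44), stood at 1132/1173 CPM in cluster 4, 205/208 in cluster 3, 71.1/53.8 in other TGFB1 cells and 3.58/4.45 in control cells. The 4 populations formed 4 steps without overlap, with 5.66 ± 0.13 from control to cluster 3 and 2.49 ± 0.10 from cluster 3 to cluster 4 on the log2 scale (edgeR adjusted p = 2.4e-17).

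Of the 25 listed genes of TGF-beta ligands, receptors and feedback, 7 were stepped up, 2 were primed-only up, 10 fell in no class and 6 were under 10 CPM. Of all 8562 genes classed, 1.60% were stepped up and 2.65% primed-only up. SKIL, a co-repressor that binds SMADs, stood at 107/126, 38.2/45.8, 24.1/27.2 and 4.03/5.38 CPM in the same order of populations. SMAD7, the inhibitory SMAD, stood at 86.7/97.5, 18.0/20.9, 12.2/13.8 and 6.27/7.11 CPM. For both genes cluster 3 lay between control and cluster 4 in each replicate, by 3.15 ± 0.10 above control for SKIL and 1.52 ± 0.09 for SMAD7. SMURF2, a ubiquitin ligase for the receptors, went from 12.3/14.2 CPM in control cells to 42.2/49.7 in cluster 3 and 146/153 in cluster 4. The receptor TGFBR2 also rose in steps, from 5.81/5.93 to 11.3/13.5 and 28.4/27.8 CPM. The receptor TGFBR1 rose only from cluster 3 (19.5/22.8 CPM) to cluster 4 (51.4/70.0 CPM), and cluster 3 was slightly below control (-0.24 ± 0.08, edgeR adjusted p = 0.034). SMAD2 differed by -0.05 ± 0.08 between the clusters (adjusted p = 0.68) and by -0.03 ± 0.08 between cluster 3 and control (adjusted p = 0.82). SMAD3 was higher in cluster 4 by 0.77 ± 0.09 but not called between cluster 3 and control (-0.06 ± 0.08, adjusted p = 0.62). BAMBI, a decoy receptor, went the other way, with 20.5/21.4 CPM in cluster 4 against 46.5/47.3 in cluster 3 and 35.7/40.2 in control cells. TGFBR3, the co-receptor betaglycan, fell in steps, from 8.48/9.13 to 2.84/4.33 and 1.72/1.66 CPM. All 25 were tested, and cluster 3 was higher than control in 17 and lower in 2, with a median log2 difference of 0.80 against 0.01 over all genes tested, of which 13.5% were higher and 13.6% lower. Cluster 4 was higher than cluster 3 in 17 and lower in 3, with a median of 1.200 against 0.00 over all genes tested, of which 22.8% were higher and 23.2% lower.

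Among the TGFB1-treated cells, the transcript of TGFB1 itself was raised mainly in cluster 4, and untreated primed cells held more of it than control cells too. It stood at 106/105 CPM in cluster 4, 21.0/18.0 in cluster 3, 19.7/16.2 in other TGFB1 cells, 16.5/14.4 in control cells and 44.3/51.1 in the untreated primed cells (control cells of cluster 10, 89 and 159 cells). Cluster 3 rose above control by 0.32 ± 0.09 (adjusted p = 0.0067) and cluster 4 above cluster 3 by 2.45 ± 0.09 (edgeR adjusted p = 7.9e-19). By the class limits TGFB1 was primed-only up.

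Of the 29 matrix genes tested, 11 were stepped up, 1 was shared up, 3 fell in no class and 14 were under 10 CPM. Of all 8562 genes, 1.60% were stepped up. Some matrix genes, such as COL1A1 and BGN, passed the limit of 10 CPM only through cluster 4, so the count is a description. FN1, fibronectin, at chromosome 2, 215360440 to 215436073 (hg38, GENCODE 44), stood at 8597/9069 CPM in cluster 4, 1170.4/1355 in cluster 3, 258/232 in other TGFB1 cells, 43.7/52.1 in control cells and 3210.4/3545 in untreated primed cells. Cluster 3 was far above control and still far below cluster 4 in each replicate, with a log2 difference of 4.70 ± 0.11 from control to cluster 3 and 2.82 ± 0.10 from cluster 3 to cluster 4. COL1A1, fibrillar collagen, was nearly absent in control cells (0.169/0.360 CPM), low in cluster 3 (4.44/4.65 CPM) and high in cluster 4 (167/182 CPM). THBS1, thrombospondin-1, went from 1.28/2.97 to 28.2/44.4 and 108/110.4 CPM, and the proteoglycan gene BGN from 0.873/0.695 to 5.91/6.55 and 133/161 CPM. CCN2, a matricellular protein and common TGF-beta target, was an exception, higher in cluster 3 (37.4/43.7 CPM) than in cluster 4 (22.7/19.3) and control cells (6.80/7.25). Of 35 matrix genes listed, 29 passed the filter on low counts, and cluster 3 was higher than control in 21 and lower in 0 of these by edgeR, beside 13.5% of all genes higher and 13.6% lower. Cluster 4 was higher than cluster 3 in 21 and lower in 2, beside 22.8% and 23.2% of all genes. The median log2 differences were 1.87 (cluster 3 from control) and 2.56 (cluster 4 from cluster 3), against 0.01 and 0.00 over all genes tested.

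Proteases and their inhibitors were mixed between the clusters. MMP2, a gelatinase at chromosome 16, 55389700 to 55506691 (hg38, GENCODE 44), was stepped up, at 175/188 CPM in cluster 4, 49.3/54.3 in cluster 3, 14.3/12.5 in other TGFB1 cells and 3.66/5.04 in control cells, or 3.56 ± 0.12 from control to cluster 3 and 1.82 ± 0.10 from cluster 3 to cluster 4 on the log2 scale. SERPINE2, a protease inhibitor, stood at 1883/1573 CPM in cluster 4, 1141/1158 in cluster 3 and 173/210.3 in control cells, and cluster 4 was above cluster 3 by 0.60 ± 0.11. PLAT, the tissue plasminogen activator, peaked in cluster 3, at 85.6/98.2 CPM against 42.5/40.4 in cluster 4 and 32.0/40.3 in control cells. Of the 15 genes of this list that were tested, cluster 3 was higher than control in 10 and lower in 0 by edgeR, beside 13.5% of all genes higher and 13.6% lower. Cluster 4 was higher than cluster 3 in 10 and lower in 3, beside 22.8% and 23.2% of all genes.

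The largest stepped changes by fold were of genes with next to no counts in control cells, so their folds rest on few molecules. FOXS1, a forkhead transcription factor, held 33.1/28.5 CPM in cluster 4 and 0.768/0.587 in cluster 3, and none of its UMIs were in control cells. Against a floor of 3 counts over the control cells, FOXS1 was at least 1580-fold higher in cluster 4 and at least 35.6-fold higher in cluster 3. ERMN, a cytoskeletal protein, had 806 UMIs in cluster 4, 3 in cluster 3 and none in control cells, at least 1000.2-fold over control. AQP1, a water channel, stood at 75.8/77.9, 0.901/0.813, 0.368/0.273 and 0.0261/0.0257 CPM in cluster 4, cluster 3, other TGFB1 cells and control cells. COL5A1, a fibrillar collagen, stood at 34.1/42.9, 1.84/2.44, 0.536/0.372 and 0/0.0514 CPM. ALOX5AP, the 5-lipoxygenase activating protein, had 1 UMI in control cells, a ratio of cluster 4 to control of 1686 with a counting interval of 301 to 66754. CSF1R, a receptor kinase best known from macrophages, was at 14.6/13.8 CPM in cluster 4 and 0.567/0.271 in cluster 3, with 2 UMIs in control cells (ratio 1094, interval 302 to 9059). All of these had their main level in cluster 4. Free RNA of cluster 4 cells can give UMIs in other cells of the same libraries, and its part in the low counts of cluster 3 was not tested.

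**Figure D2:**
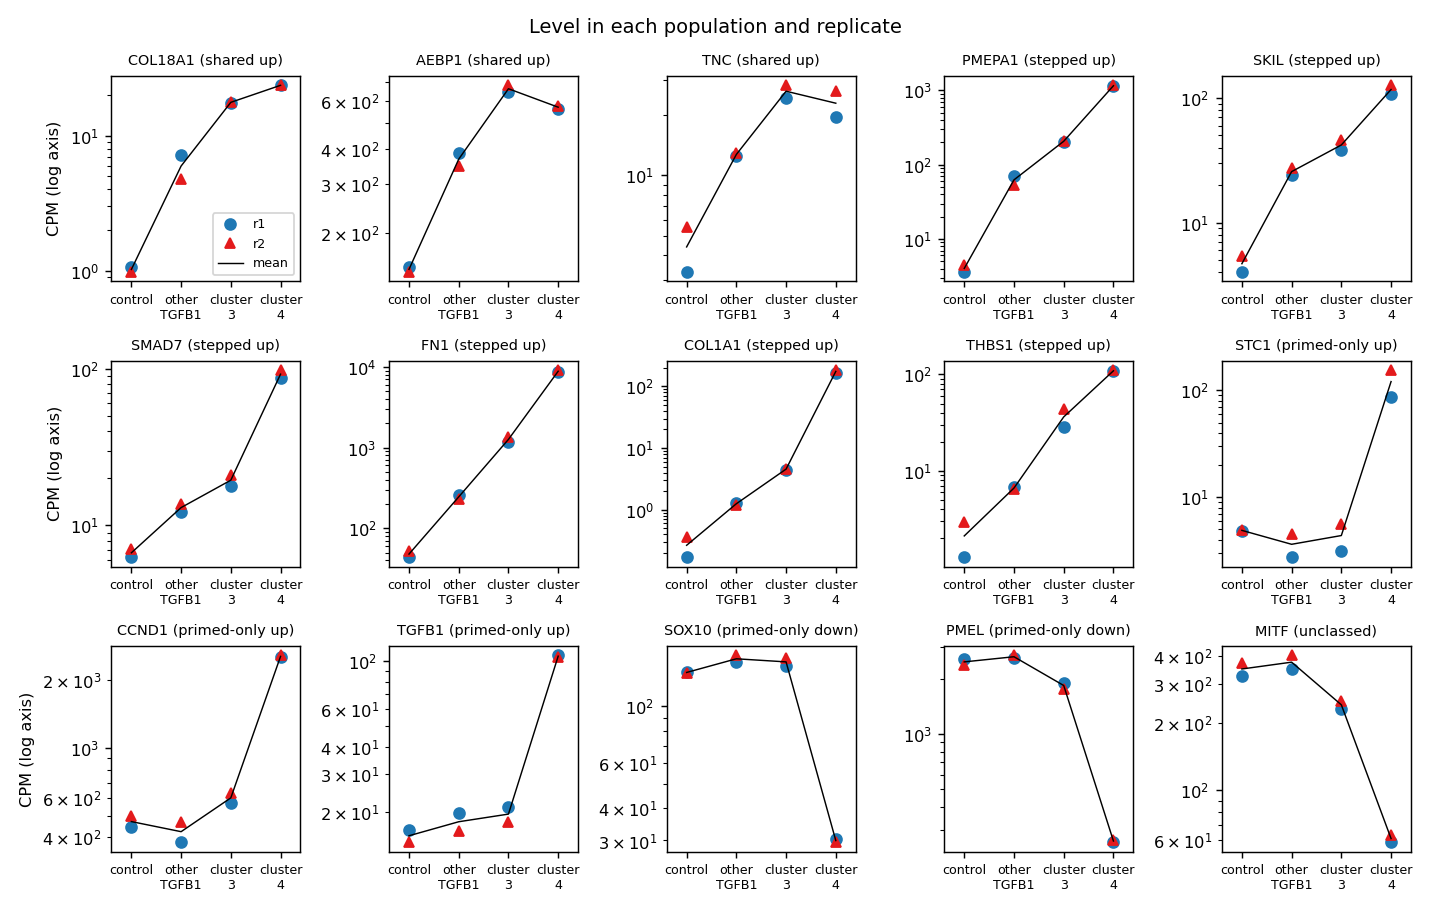
CPM on a log axis of 15 genes in control cells, other TGFB1 cells, cluster 3 and cluster 4, with r1 as circles, r2 as triangles and the mean of both as a line. COL18A1, AEBP1 and TNC are level between clusters 3 and 4, and PMEPA1, SKIL, SMAD7, FN1, COL1A1 and THBS1 climb from population to population. STC1, CCND1 and TGFB1 climb at cluster 4, and SOX10, PMEL and MITF drop most at cluster 4. PMEL and MITF are already lower in cluster 3 than in control cells.

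Stepped down genes were few. HPGD, the enzyme that degrades prostaglandins, went from 41.1/31.7 CPM in control cells to 22.4/18.1 in other TGFB1 cells, 13.8/11.9 in cluster 3 and 2.18/1.61 in cluster 4. RLBP1, a retinal-binding protein, went from 54.8/58.7 to 29.1/25.2 and 4.35/3.59 CPM, and FRMD4B, a scaffold protein, from 443/429.6 to 139/139 and 38.2/34.9 CPM. SCML4, a Polycomb-like protein, went from 43.6/48.0 to 16.9/20.5 and 2.48/3.04 CPM. The populations kept the order control, cluster 3, cluster 4 in both replicates for each of these.

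Primed-only up genes, for which cluster 3 stayed within 0.5 of control on the log2 scale, included secreted factors and an actin regulator. STC1, the secreted glycoprotein stanniocalcin-1, stood at 87.6/154 CPM in cluster 4, 3.17/5.60 in cluster 3, 2.75/4.51 in other TGFB1 cells, 4.81/4.99 in control cells and 323/259.9 in untreated primed cells. Cluster 3 was not called different from control (-0.22 ± 0.16, edgeR adjusted p = 0.33), and cluster 4 stood 4.79 ± 0.14 above cluster 3. TFPI2, a serine protease inhibitor, stood at 50.6/212, 6.84/8.49 and 4.63/6.75 CPM in cluster 4, cluster 3 and control, with a wide gap between replicates in cluster 4. MICAL2, an actin oxidase, stood at 37.4/42.3, 3.60/3.57 and 2.70/2.46 CPM, and BIN1, a membrane-bending protein, at 39.9/40.1, 3.77/3.93 and 2.72/2.95 CPM. In both of these cluster 3 was also called above control, by 0.46 ± 0.14 and 0.42 ± 0.15. TMEM92, a membrane protein, stood at 11.4/15.4, 0.634/1.08 and 0.704/1.03 CPM. CST4, a salivary cystatin, stood at 42.9/38.3, 3.30/4.02 and 2.38/5.14 CPM, and its reads may be shared with near-identical cystatin genes. Cluster 4 lay above cluster 3, other TGFB1 and control cells in both replicates for these 6 genes.

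CCND1, the cyclin D1 gene, was the 1 listed cell cycle gene of this class, at 2531/2582 CPM in cluster 4, 571/629 in cluster 3 and 444/497 in control cells. CDKN1A, the p21 cell cycle inhibitor, rose in the same cells, at 38.8/39.8 CPM against 2.07/2.12 and 1.19/1.21. Both a driver and a brake of the cell cycle were thus highest in cluster 4.

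Because the authors named cluster 4 primed by such markers, the primed state markers are given as a description. All 12 were higher in cluster 4 than in cluster 3, beside 22.8% of all genes, while cluster 3 was higher than control in 6 and lower in 2, beside 13.5% and 13.6% of all genes. Not all were raised over control in cluster 4, which was higher in 11 and lower in 1, beside 28.5% and 28.4% of all genes. The lower one was VGF, a shared down gene. NT5E, the surface nucleotidase CD73, stood at 94.1/132 CPM in cluster 4, 13.8/20.3 in cluster 3 and 15.1/28.3 in control cells, and cluster 3 was slightly lower than control (-0.33 ± 0.10, edgeR adjusted p = 0.018). EGFR, the growth factor receptor used to sort primed cells, stood at 15.3/18.5, 1.97/2.17 and 1.24/1.49 CPM. AXL, a receptor kinase, was stepped, at 37.0/48.1, 5.57/6.14, 1.27/1.66 and 0.208/0.605 CPM from cluster 4 down to control. NGFR, the other sorting marker, stood at 5.01/13.9 CPM in cluster 4, 0.935/4.38 in cluster 3 and 0.404/2.77 in control cells, with replicates far apart in every population.

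Actin and contractile genes moved as a block at cluster 4. Of the 14 listed, 13 were tested, and cluster 4 was higher than cluster 3 in all 13, beside 22.8% of all genes, with a median of 1.47 against 0.00 over all genes. Cluster 3 was higher than control in 9, beside 13.5% of all genes, with a median of 0.68 against 0.01. TPM1, a tropomyosin that stabilizes actin filaments, stood at 447/415 CPM in cluster 4, 70.4/65.8 in cluster 3 and 40.9/39.8 in control cells. TPM4 stood at 457/455, 138/157 and 121/129 CPM, and MYLK, the myosin light chain kinase, at 51.5/51.2, 6.84/10.9 and 6.06/7.52 CPM.

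Growth factor and inflammatory genes were mostly higher in cluster 4 than in cluster 3. Of all genes tested, 22.8% were higher and 23.2% lower in that comparison, and 13.5% higher and 13.6% lower in cluster 3 than in control. Of 21 growth factor genes tested, cluster 4 was higher than cluster 3 in 19 and lower in 1, and cluster 3 higher than control in 10 and lower in 4. IL11, a cytokine that fibroblasts make in response to TGF-beta, stood at 107/220.5, 3.57/5.10, 2.04/1.76 and 0.143/0.900 CPM from cluster 4 to control. FGF1 stood at 59.3/65.6, 14.1/18.1 and 2.76/2.78 CPM, and VEGFA, the angiogenic factor, at 75.5/117, 11.5/15.4 and 12.95/12.9 CPM. IGFBP5, an IGF-binding protein, was higher in cluster 3 (262/209.5 CPM) than in cluster 4 (178/146) and control cells (20.6/14.3). Of 13 inflammatory genes tested, cluster 4 was higher than cluster 3 in 12 and lower in 1, but cluster 3 was called higher than control in only 3, with medians of 4.97 and 0.24. CCL2, the monocyte chemokine, stood at 18.0/22.2 CPM in cluster 4, 0.234/0.135 in cluster 3 and 0.0391/0.0129 in control cells. The exception was ICAM1, an adhesion receptor, at 6.83/6.53 CPM in cluster 4 and 13.7/16.5 in cluster 3.

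Among lists of transcription factors, signaling targets and integrins, only AP-1 factors had no gene called lower in cluster 4 than in cluster 3. The others went both ways in that comparison. Of all genes, 22.8% were higher and 23.2% lower in cluster 4 than in cluster 3, and 13.5% higher and 13.6% lower in cluster 3 than in control. Of 12 AP-1 factors, cluster 4 was higher than cluster 3 in 10 and lower in 0 by edgeR, and cluster 3 higher than control in 5 and lower in 1. JUNB stood at 230.1/195, 40.8/38.5 and 32.1/32.7 CPM, a rise mainly at cluster 4, whereas JUN stood at 44.8/43.6, 18.0/20.2 and 2.098/3.60 CPM, a rise in steps. Of 10 transcription factors and cadherins of epithelial-mesenchymal transition tested, cluster 4 was higher than cluster 3 in 7 and lower in 2, and cluster 3 higher than control in 6 and lower in 2. PRRX1 rose in steps, from 39.9/35.2 to 94.0/85.3 and 230.0/200.3 CPM, and so did CDH2, N-cadherin, from 10.3/10.8 to 22.6/28.3 and 60.3/68.0 CPM. ZEB1 differed from control by 0.20 ± 0.11 in cluster 3 (adjusted p = 0.19) and rose by 0.94 ± 0.11 from cluster 3 to cluster 4. ID1 and ID2, targets of BMP signaling that inhibit differentiation factors, were highest in cluster 4, ID1 at 36.5/43.2 CPM against 9.75/11.3 in cluster 3 and 11.5/14.2 in control cells. Of 8 ID and BMP genes tested, cluster 4 was higher than cluster 3 in 3 and lower in 2, and cluster 3 higher than control in 2 and lower in 4. Of 13 YAP/TEAD targets tested, cluster 4 was higher than cluster 3 in 7 and lower in 3, and cluster 3 higher than control in 7 and lower in 0 by edgeR. Integrins split as well: cluster 4 was higher than cluster 3 in 6 of 11 and lower in 4, while cluster 3 was higher than control in 7 and lower in 1. ITGA5, the fibronectin receptor subunit, stood at 46.5/55.6, 9.28/9.93 and 6.62/7.15 CPM in cluster 4, cluster 3 and control, and ITGA6, a laminin receptor subunit, at 31.4/34.3, 73.2/96.0 and 79.1/87.6 CPM.

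Melanocyte lineage genes were low in cluster 4 and mixed in cluster 3. Of 23 tested, cluster 4 was lower than cluster 3 in 21 and higher in 1, with a median log2 difference of -2.01, beside 23.2% of all genes lower and 22.8% higher. Cluster 3 was higher than control in 7 and lower in 10, with a median of 0.12, beside 13.5% and 13.6% of all genes. SOX10, a master regulator of the neural crest and melanocyte lineage at chromosome 22, 37970686 to 37987422 (hg38, GENCODE 44), stood at 30.5/29.5 CPM in cluster 4, 143/155 in cluster 3, 149/158 in other TGFB1 cells and 136/135 in control cells. Cluster 3 was not called different from control (0.12 ± 0.06, adjusted p = 0.18) and cluster 4 differed from it by -2.30 ± 0.07. PMEL, a melanosome fibril protein, stood at 256/265, 1915/1775, 2607/2694 and 2574/2395 CPM, and MITF at 58.5/63.2, 231/253, 349/403 and 326/374 CPM. Both were lower in cluster 3 than in control cells in each replicate. MLANA, a melanosome antigen, and DCT, an enzyme of melanin synthesis, were also partly lower in cluster 3 already. MLANA stood at 74.3/92.2, 692/688 and 1134/1254 CPM in cluster 4, cluster 3 and control, and DCT at 20.1/23.3, 210.0/198 and 392/409 CPM. ERBB3, a neuregulin receptor, was higher in cluster 3 (113/111 CPM) than in control cells (61.0/63.2) and low in cluster 4 (13.1/14.2). EDNRB, the endothelin receptor, and SOX5 had the same form, SOX5 at 24.3/24.5, 81.4/82.3 and 41.6/40.2 CPM. Of the 23 genes of this list that were tested, 10 were primed-only down, 10 fell in no class and 3 were under 10 CPM. Of all 8562 genes, 3.39% were primed-only down. Other primed-only down genes with the largest change were ESRP1, an epithelial splicing regulator, at 1.62/1.47, 16.8/16.7 and 21.0/19.9 CPM, and BAAT, an enzyme of bile acid conjugation, at 3.44/3.77, 38.3/37.0 and 41.2/43.04 CPM.

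Among the 18 genes that peaked in cluster 3 were a cadherin, a Hippo pathway gene and a protease. CDH19, a cadherin of the Schwann cell lineage, stood at 10.0/10.3 CPM in cluster 3, 4.82/3.30 in other TGFB1 cells, 3.02/2.84 in control cells and 1.21/0.920 in cluster 4. On the log2 scale, cluster 3 differed from control by 1.77 ± 0.12 and cluster 4 from cluster 3 by -3.24 ± 0.19. FRMD6, a Hippo pathway scaffold, stood at 296/327 CPM in cluster 3, 121/129 in cluster 4 and 98.4/99.2 in control cells. OLFML2A, a secreted protein, stood at 24.6/24.9, 9.11/9.57 and 4.90/4.64 CPM, and the long noncoding RNA LNCAROD at 34.6/25.7, 12.7/7.08 and 3.93/2.78 CPM. In each of the 18 peak genes the other TGFB1 cells lay between control cells and cluster 3 in both replicates, beside 1053 of all 8562 genes. Choosing genes raised in cluster 3 favours this order.

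The named genes of the dip in cluster 3 were mitotic genes except ISG20, an exonuclease, and the dip moved with phase. ASPM, a spindle gene, stood at 40.0/43.9 CPM in cluster 3, 141/155 in cluster 4, 201/193 in other TGFB1 cells and 142/137 in control cells. PLK1, a mitotic kinase, stood at 12.8/14.7, 51.5/49.4, 76.1/68.2 and 45.0/40.3 CPM, and UBE2C, a ubiquitin conjugase of the anaphase, at 35.2/40.4, 188/184, 230.0/194 and 116/121 CPM. Cluster 3 was the lowest of the 4 populations in each of these. Among cells called G1, the class held 2 genes, of which 1 was among the 59, and the log2 difference of ASPM, cluster 4 minus cluster 3, turned from 1.83 ± 0.07 to -0.54. By contrast, 120 of 137 stepped up, 196 of 227 primed-only up, 243 of 290 primed-only down, 16 of 22 shared up and 14 of 18 peak genes stayed in their class among G1 cells. MYC was lowest in cluster 4, with 45.8/53.3 CPM in cluster 4, 126/135 in cluster 3 and 175/169.8 in control cells. Of 20 cell cycle genes tested, cluster 4 was higher than cluster 3 in 9 and lower in 8, beside 22.8% and 23.2% of all genes. Cluster 3 was higher than control in 5 of them and lower in 11, beside 13.5% and 13.6% of all genes.

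To see how the level of a class was spread over cells, each cell was thinned to 5000 UMIs and the UMIs of a class were added up. In cluster 3 the stepped up genes were raised a little in many cells and strongly in few. Without FN1, whose UMIs would outweigh the rest, a cluster 4 cell held a median of 52 UMIs of the other 136 stepped up genes in r1 and 56 in r2, a cluster 3 cell 8 and 9, another TGFB1 cell 5 in each, and a control cell 3 in each. The 5th to 95th percentiles were 27 to 79.65 and 29 to 90 in cluster 4, and 2 to 34 and 2 to 37 in cluster 3. In cluster 3, 9.72% and 11.1% of cells reached the 5th percentile of cluster 4, and 47.2% and 47.3% did not pass the 95th percentile of control cells. The 10% of cluster 3 cells with most of them held 31.3% and 30.4% of the class's UMIs, against 15.7% and 16.5% in cluster 4 and 27.1% and 27.6% in control cells.

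For the shared up genes the cells of both clusters overlapped in large part, with a wider spread in cluster 3. The median was 14 and 13 UMIs in cluster 4, 12 and 13 in cluster 3, 8 and 8 in other TGFB1 cells and 5 and 5 in control cells. In cluster 3, 91.2% and 93.0% of cells reached the 5th percentile of cluster 4. That limit was only 6 UMIs, and 73.7% and 71.9% of other TGFB1 cells and 34.8% and 39.2% of control cells reached it too. The 95th percentile was 31 and 32 UMIs in cluster 3 and 25 and 25 in cluster 4. In cluster 3, 40.6% and 37.3% of cells did not pass the 95th percentile of control cells, against 24.9% and 28.0% in cluster 4. For the primed-only up genes the median was 165 and 173.5 UMIs in cluster 4, 48 and 51 in cluster 3 and 49 and 49 in control cells, and 87.8% and 84.2% of cluster 3 cells did not pass the 95th percentile of control. For the primed-only down genes it was 41 and 42 in cluster 4, 159 and 155 in cluster 3, 192 and 198 in other TGFB1 cells and 189 and 184 in control cells. The classes were defined on these same cells, so the values describe their spread only.

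**Figure D3:**
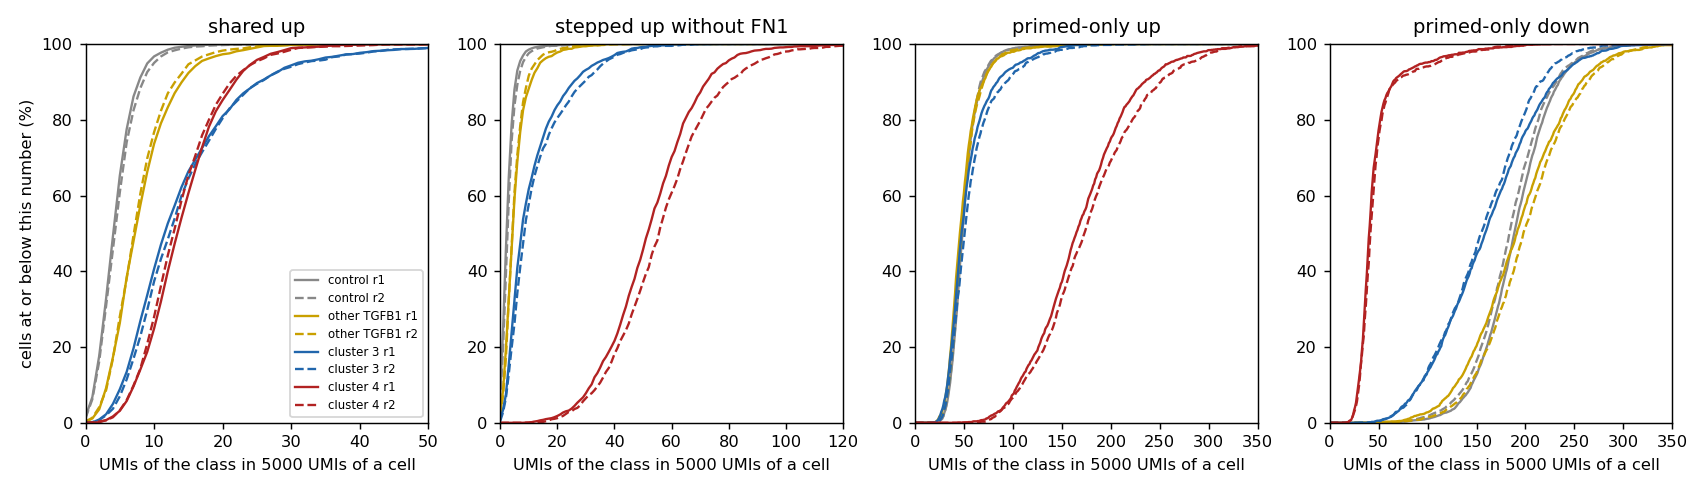
Cumulative percentage of cells (y axis) by the number of UMIs that a class held in a cell thinned to 5000 UMIs (x axis), for shared up, stepped up without FN1, primed-only up and primed-only down genes, with r1 as solid and r2 as dashed lines. The curves of clusters 3 and 4 lie closer together for shared up genes than for the other classes, with a wider spread in cluster 3. For stepped up genes cluster 3 runs between control cells and cluster 4 with a tail toward cluster 4. For primed-only up genes cluster 3 runs close to control cells.

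The share of cells with at least 1 UMI of single genes, after the same thinning, gave the same picture gene by gene. PMEPA1 was found in 97.0% and 96.5% of cluster 4 cells, 48.2% and 48.0% of cluster 3 cells, 22.5% and 19.1% of other TGFB1 cells and 1.58% and 2.16% of control cells. FN1 was found in 100% of cluster 4 cells in both replicates, in 71.9% and 77.8% of cluster 3 cells, in 46.9% and 44.9% of other TGFB1 cells and in 12.1% and 15.3% of control cells. For both genes the share in cluster 3 lay above that in the other TGFB1 cells. COL1A1 was found in 43.02% and 43.4% of cluster 4 cells and 1.93% and 1.48% of cluster 3 cells, against 0.123% and 0.0851% of control cells. TNC was found in 9.63% and 11.96% of cluster 4 cells and 11.6% and 13.2% of cluster 3 cells, against 1.68% and 2.67% of control cells. SOX10 was found in 12.1% and 10.3% of cluster 4 cells, 50.4% and 52.9% of cluster 3 cells and 49.2% and 48.3% of control cells. STC1 was found in 23.2% and 33.1% of cluster 4 cells, whereas cluster 3 (1.56% and 2.60%) was near control (2.17% and 2.297%). The other TGFB1 cells held COL1A1 in 0.422% and 0.537% of cells, and the part of free RNA in the shares of cluster 3 was not tested.

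A test that does not use the clusters compared whole TGFB1 libraries with whole control libraries. It called 2990 of 18389 genes higher (16.3%) and 2334 lower (12.7%), or 1972 and 1193 without TGFB1 r1 and 2161 and 1438 without the replicate block. In such sums, fewer cells of a kind and less RNA per cell cannot be told apart. PMEPA1 was higher by 6.08 ± 0.12 on the log2 scale, FN1 by 4.42 ± 0.13 and COL1A1 by 5.06 ± 0.12, while SOX10 differed by -0.17 ± 0.07 and was not called (adjusted p = 0.064). FN1 was at 99.9 and 163 CPM in the control libraries, 2668 and 2798 in the TGFB1 libraries, 63.8 and 110 with TGFBRi and 29.8 and 42.4 with PI3Ki. The TGFB1 libraries stood apart from all 6 others. All 22 shared up, all 137 stepped up and 215 of 227 primed-only up genes were called higher in the libraries, and 218 of 290 primed-only down genes lower, but the classes were chosen on the same cells, so these counts are no support. The gene lists were chosen with earlier results of these data known, and the libraries hold the same cells, so the list counts are a description. Of 25 TGF-beta genes, 18 were higher and 2 lower in the libraries (median 1.05), and of 28 matrix genes 23 were higher and 0 lower (2.18). Of 15 protease genes, 10 were higher and 0 lower (0.84), and of 12 primed markers 8 were higher and 1 lower (1.27). Of 23 melanocyte genes, 3 were higher and 10 lower (-0.12). Over all genes tested the median was 0.01.

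**Figure D4:**
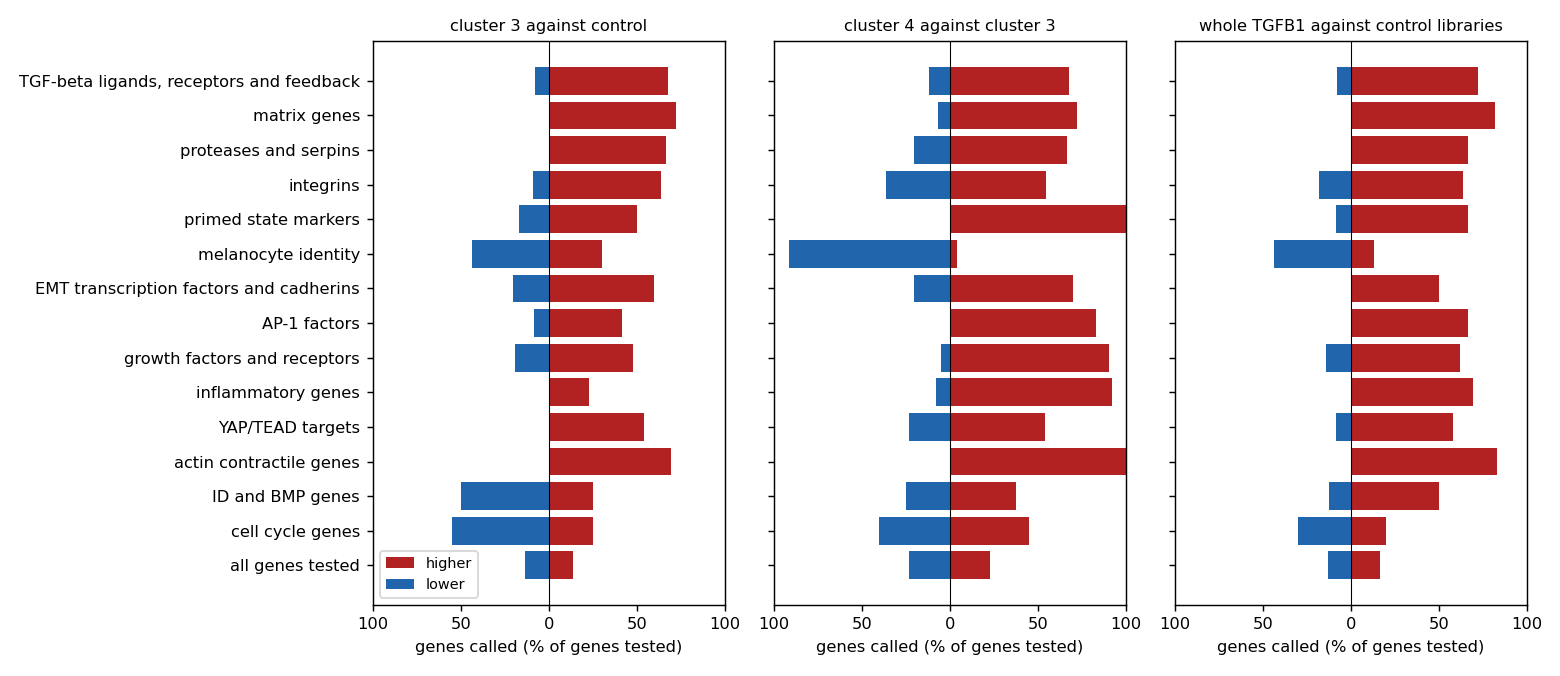
Percentage of tested genes called higher (red) and lower (blue) by edgeR in 14 gene lists and in all genes, for cluster 3 against control, cluster 4 against cluster 3 and whole TGFB1 against whole control libraries. TGF-beta and matrix genes are red in all 3 panels, primed markers and actin genes are red throughout between clusters 4 and 3, and melanocyte genes are blue mainly between clusters 4 and 3.

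Cluster 4 was set beside untreated primed cells of the control libraries, which arose without added ligand. The up classes were chosen for a high level in cluster 4, which tilts this comparison toward it, so the values are a description only. Over stepped up genes, cluster 4 was above them by a median of 0.99 on the log2 scale, with 68 of 137 genes above by more than 1 and 6 below by more than 1. Over the 45 of them with at least 10 CPM in cluster 3 the median was 0.88, with 20 above and 1 below. Over primed-only up genes the median was 0.26 (0.25 over the 116 with at least 10 CPM in cluster 3), over primed-only down genes -0.79 and over all 8562 genes -0.07. Per cell, untreated primed cells held a median of 165 and 164.5 UMIs of the primed-only up genes, against 165 and 173.5 in cluster 4, and 30 and 33 UMIs of the stepped up genes without FN1, against 52 and 56. FOXS1 had no UMI in untreated primed cells. STC1 was higher in them (323/259.9 CPM) than in cluster 4. The cell numbers (89 and 159, of which 88 and 156 remained after thinning) limit these values, and no test was run on them. The untreated primed cells were those of cluster 10, without the 5 and 6 control cells of cluster 4. The 2 groups thus differ in cluster as well as in treatment, which cannot be told apart.

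Cells of the first experiment took no part in drawing these clusters. Their r1 and r2 are not separate cultures, since by the study's methods the cells of a well were split over 2 loadings of the chip, so their spread is technical. The methods describe a well of mixed cells and another sorted for high EGFR and NGFR, both expanded before loading. The sort raised the number of primed cells, and the part of the sort and the well in the ratios was not tested. There, 1704 and 1139 untreated WM989 cells labelled primed were compared with 5886 and 3802 labelled drug-susceptible, as a ratio of CPM with 0.1 added and with no test. A gene was counted where it differed more than 2-fold the same way in both loadings, which held for 7.56% of 8400 genes upward (635) and 6.11% downward (513). Stepped up genes were counted upward in 120 of 132 (90.9%, median log2 ratio 3.72), or in 38 of 44 (86.4%, median 2.83) of those with at least 10 CPM in cluster 3. Primed-only up genes were counted upward in 159 of 217 (73.3%, median 1.74), or in 83 of 114 (72.8%, median 1.62) of those with at least 10 CPM in cluster 3. The other genes of both classes passed the limit of 10 CPM through a population with a higher level. A limit on cluster 3 does not remove this selection, as the 45 such stepped up genes had a median of 6.66 CPM in control cells. The counts with and without this limit are therefore a description and no support. Shared up genes were counted upward in 6 of 22 (27.3%, median 0.65). Primed-only down genes were counted downward in 212 of 282 (75.2%, median -1.65). This class had a median of 10.96 CPM in cluster 4 and 36.96 in control cells. Its members under 10 CPM in cluster 4 passed the limit through populations where they are high, so this count is a description too. TNC was higher in untreated primed cells by 3.13 in r1 and 2.52 in r2, whereas AEBP1 was lower (-0.62 and -0.43). MGP was lower there too (-3.23 and -4.43), but in the treatment experiment untreated primed cells held more of it (117/308 CPM) than control cells, so the experiments went opposite ways. Of the peak genes, 7 of 16 were counted downward, CDH19 among them (-3.29 and -4.13).

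In WM983B (731 primed and 718 drug-susceptible cells of 1 library), 1.23% of 8562 genes were more than 2-fold higher (105) and 0.958% more than 2-fold lower (82) in primed cells. Stepped up genes were higher in 52 of 137 (38.0%, median log2 ratio 0.78), or in 13 of 45 (28.9%, median 0.64) of those with at least 10 CPM in cluster 3. Primed-only up genes were higher in 19 of 227 (8.37%, median 0.39), or in 5 of 116 (4.31%, median 0.33) of those with at least 10 CPM in cluster 3. Shared up genes were higher in 0 of 22 (median 0.33). Primed-only down genes were lower in 38 of 290 (13.1%, median -0.34). These values have no replicate, and the classes carry the same selection by level as in WM989, so the counts are a description.

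**Figure D5:**
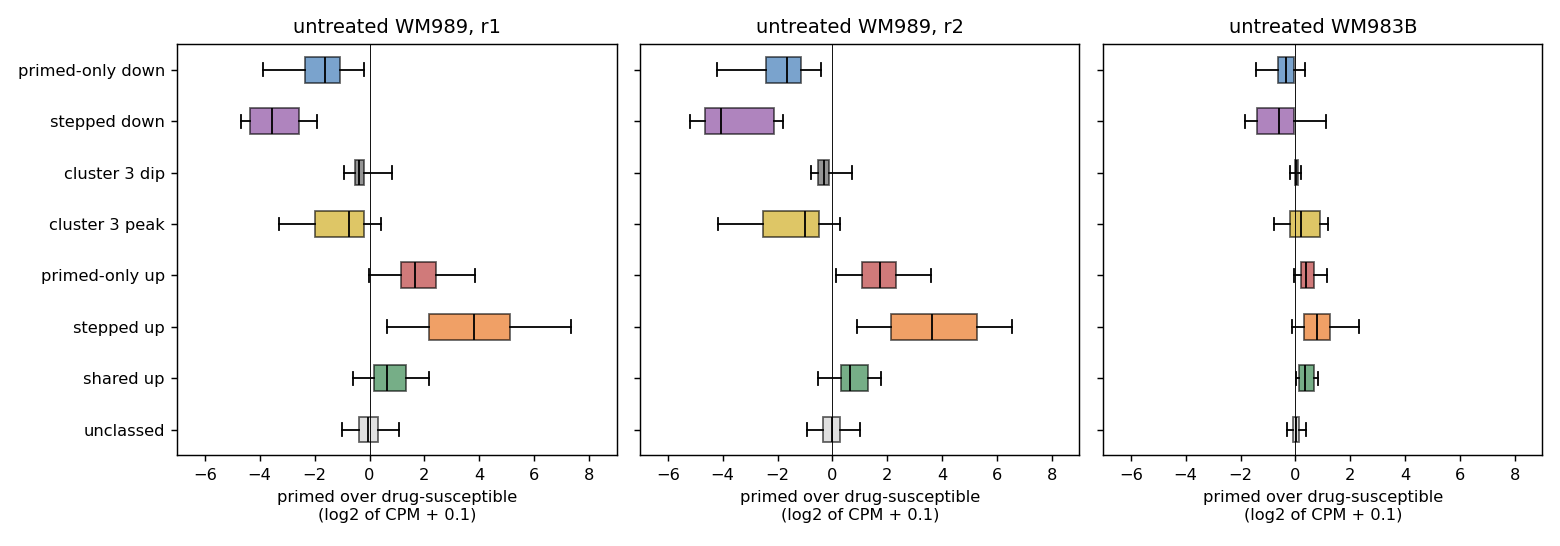
Log2 ratio of CPM in primed over drug-susceptible untreated cells (x axis) by response class (y axis), for WM989 r1, WM989 r2 and WM983B, with boxes at the quartiles, a line at the median and whiskers at the 5th and 95th percentiles over genes. In WM989 the medians of stepped up genes are 3.82 and 3.61 and in WM983B 0.78, against 0.65, 0.65 and 0.33 for shared up genes.

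Chromatin at the genes' starts was read from ATAC-seq peaks of untreated WM989 cells sorted for high EGFR, high NGFR or both (9 libraries) and of cells labelled Mix (3 libraries), which the study's methods describe as negative for both markers. The value was the largest fold enrichment of a peak within 1000 bases of a gene start, and a gene was counted where all 9 sorted libraries lay above, or all below, the 3 Mix libraries. Of 8173 genes with a peak, 116 (1.42%) were above and 25 (0.306%) below. Stepped up genes were above in 15 of 117 (12.8%), or in 3 of 43 (6.98%) of those with at least 10 CPM in cluster 3. Primed-only up genes were above in 9 of 216 (4.17%), or in 3 of 114 (2.63%) with that level in cluster 3. Shared up genes were above in 0 of 22, and primed-only down genes were below in 7 of 266 (2.63%). The counts are small and moved with the libraries used. Without 1 set of replicates the stepped count above ran from 20 to 32 and that of all genes from 247 to 843. The primed-only up count above ran from 18 to 37. The primed-only down count below ran from 14 to 16, and that of all genes from 80 to 214. Classes carry the same selection by level as in the comparisons with untreated cells, so the counts are a description. The depth behind the values is unknown.

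Promoters of 4 genes are printed to show the sequence where expression and accessibility were both read, 3 for genes that rose and 1 for a gene that fell. Each is the 250 bases before the gene's start from RefSeq on GRCh38.p14, 5′ to 3′ on the gene's strand, in lower case. S100A3 and TNFAIP6, stepped up genes whose sorted libraries all lay above Mix, and SLC24A5, a melanosome cation exchanger whose sorted libraries all lay below Mix, were chosen after their values were seen, and FN1 is shown as the stepped up gene with the highest level in cluster 4. Capitals mark an AP-1 motif (TGANTCA) in the first pair and an M-box (TCATGTG, read as its reverse complement), the site type that MITF binds, in SLC24A5.
S100A3 (chr1:153549259-153549508, minus strand): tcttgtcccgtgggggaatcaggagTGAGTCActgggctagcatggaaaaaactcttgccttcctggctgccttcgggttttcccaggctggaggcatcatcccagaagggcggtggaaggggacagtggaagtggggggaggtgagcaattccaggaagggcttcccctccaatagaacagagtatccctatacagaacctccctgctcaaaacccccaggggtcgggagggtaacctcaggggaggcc
TNFAIP6 (chr2:151357342-151357591, plus strand): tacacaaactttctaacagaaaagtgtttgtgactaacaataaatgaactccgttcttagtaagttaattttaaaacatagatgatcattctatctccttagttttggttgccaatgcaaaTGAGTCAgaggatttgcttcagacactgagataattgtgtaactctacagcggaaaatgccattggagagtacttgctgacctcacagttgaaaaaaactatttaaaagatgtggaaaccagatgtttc
FN1 (chr2:215436069-215436318, minus strand): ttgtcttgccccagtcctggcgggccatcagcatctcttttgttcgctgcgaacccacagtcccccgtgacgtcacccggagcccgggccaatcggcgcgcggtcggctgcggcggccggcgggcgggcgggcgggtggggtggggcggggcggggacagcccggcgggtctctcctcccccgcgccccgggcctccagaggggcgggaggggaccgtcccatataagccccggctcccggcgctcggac
SLC24A5 (chr15:48120740-48120989, plus strand): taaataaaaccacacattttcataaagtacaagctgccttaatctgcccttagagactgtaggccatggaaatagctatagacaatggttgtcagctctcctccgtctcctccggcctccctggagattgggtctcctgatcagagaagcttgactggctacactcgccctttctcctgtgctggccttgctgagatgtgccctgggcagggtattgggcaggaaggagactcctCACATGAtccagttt

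The AP-1 motif began 225 bases before the start of S100A3 and 129 bases before that of TNFAIP6, and it occurs, on either strand, in 5.81% of 17577 promoters of this length. The M-box began 15 bases before the start of SLC24A5 and occurs in 2.23%. Left in lower case are a SMAD site (CAGACA) in TNFAIP6 and a SOX motif (ACAATG) in SLC24A5. FN1 held none of the 6 motifs searched (also TEAD GGAATG, SMAD site CAGACA, E-box CACGTG and SOX ACAATG, in 10.7%, 12.3%, 7.48% and 7.51% of promoters). S100A3, a calcium-binding protein, stood at 19.1/18.7, 4.61/4.83 and 0.756/1.08 CPM in cluster 4, cluster 3 and control cells, with a fold enrichment of 7.17, 7.54 and 9.68 in the Mix libraries and 13.7 to 42.3 (median 22.3) in the sorted ones. TNFAIP6, a hyaluronan-binding protein, stood at 13.8/21.9, 6.31/7.81 and 0.938/1.88 CPM, with 9.41, 12.7 and 9.68 in Mix and 18.1 to 26.8 (median 22.2) in sorted libraries. SLC24A5 stood at 7.13/7.22, 39.9/38.5 and 47.0/47.7 CPM, with 26.0, 22.6 and 24.2 in Mix and 13.2 to 19.7 (median 17.1) in sorted libraries. FN1 had 23.3, 23.1 and 25.2 in Mix and 31.2 to 56.1 (median 33.7) in sorted libraries. A motif match is a description of the letters in this window and says nothing of a factor's binding.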

How the data were processed

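Gene counts per cell were made by the authors with Cell Ranger on hg38 (version not given in the sources used here). The authors removed cells with many genes (likely doublets) or high mitochondrial reads, and deposited the counts with cell labels of condition, replicate, Louvain cluster and phase, and the percent of mitochondrial reads. No doublet caller was run here. For ATAC-seq, the deposited peak files give the fold enrichment (a ratio) called by the authors per library with MACS2 2.1.1.20160309 after alignment with Bowtie2 2.3.4.1.

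UMI counts were summed per population and replicate and tested two-sided with edgeR 4.0.16 in R 4.3.3 (filterByExpr, TMM, quasi-likelihood, replicate as a block), on 12 sums: TGFB1 cluster 4, cluster 3 and other cells, and non-primed cells of the control, TGFBRi and PI3Ki libraries. The block was kept because r1 and r2 deviations correlated at 0.109 to 0.356 over pairs of populations and 0.256 to 0.365 over pairs of libraries. This left 5 residual degrees of freedom, and 3 over the 8 whole libraries. DESeq2 1.42.0 was an alternative. Percentages of cells were recomputed after thinning each cell to 5000 UMIs, which left out 0 to 5 cells of a population in a replicate (1 in each for cluster 3, and 1 and 3 untreated primed cells). On simulated counts, 100 genes were changed by a log2 fold of 1 and 100 by 2, and 100% of them were recovered in each comparison. False calls were 4.76% for cluster 4 against cluster 3 (17444 genes), 7.41% for cluster 3 against control (17474) and 6.98% for whole libraries (18024). Far more genes were called in the data, and recovery among genes with low counts was not tested separately. The 100% therefore does not extend to either case.

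Members, classes and gene lists were chosen with earlier results of these data known. Genes named were the 6 with the largest change per class and direction that moved the same way in both replicates, and listed genes; others are said to be chosen after their values were seen. Gene positions were from GENCODE 44, for 23432 of 36601 genes, and promoter sequences from RefSeq for 17577. Class shares of promoter motifs were left out, as under 80% of a class had a promoter. All columns of per-sample values had a sample, and lentiviral barcodes were not used.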

Additional observations from a re-analysis of the deposited data

How the results depend on the processing

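The design has 2 cultures a condition, the clusters were drawn on the counts compared, and what a cell's depth cannot show is limited by a median of 11095 to 21929 UMIs. Named genes were recomputed in 7128 combinations of comparison and setting, of which 6749 kept their direction and side of the threshold, 354 kept only the direction and 25 turned. The fit without the replicate block gave 3730 genes higher and 3717 lower in cluster 4 than in cluster 3, and for the libraries 2161 higher and 1438 lower against 2334 lower with the block; other counts of the cluster and library comparisons stayed within 1.5 times without the block. Leaving out 1 library each, genes higher in cluster 3 than in control numbered 1261 to 1683 and lower 1344 to 1725, lowest without TGFB1 r1 in each case. In the libraries, 1972 to 2474 genes were higher and 1193 to 1692 lower, again lowest without TGFB1 r1. The lower counts were also more than 1.5 times smaller without TGFB1 r2 for cluster 3 (1566) and without control r1 (1441) or control r2 (1404) for the libraries. All counts of genes from DESeq2, library size scaling, no filter, thinned cells, G1 cells and other baselines were within 1.5 times of those reported.

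The size of the classes depended on their limits. With a minimum log2 fold of 0.58 there were 80 shared up, 41 shared down, 263 stepped up, 102 stepped down, 521 primed-only up, 734 primed-only down, 63 peak and 124 dip genes. With a minimum of 30 CPM they held 14, 2, 74, 6, 121, 164, 8 and 39. With a band of 0.3 there were 14 shared up, 1 shared down, 141 primed-only up and 191 primed-only down genes, and with 0.7 there were 35 shared up. Among G1 cells there were 3 shared down, 26 stepped down and 2 dip genes, and within r2 alone 1 shared down gene. A limit of 10 CPM in cluster 3, chosen after seeing the data, left 45 stepped up and 116 primed-only up genes. Looser limits let more genes in and stricter ones fewer, while the cause of the shifts among G1 cells and within r2 was not tested.

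In ATAC-seq, a window of 5000 bases gave 9 stepped up genes and 102 of all genes above Mix, and 45 of all genes below. With the replicate block of the ATAC libraries, which keeps genes above or below within each number, 18 primed-only up genes and 285 of all genes were above and 12 primed-only down and 76 of all below. Leaving out each replicate number gave 20 to 32 stepped up, 18 to 37 primed-only up and 247 to 843 of all genes above, and 14 to 16 primed-only down and 80 to 214 of all genes below, as fewer libraries have to agree. Without thinning, FN1 was found in 89.3% of cluster 3 cells, PMEPA1 in 99.4% of cluster 4 and 69.2% of cluster 3 cells, TNC in 22.6% and 25.6%, and SOX10 in 22.1% and 82.7%.

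Differences that turned are log2 values, and the cause was not tested. Among G1 cells, cluster 4 minus cluster 3 was -0.54 for ASPM, -0.65 for CCNB1, -0.52 for CDK1, -0.029 for CDKN1B, -0.43 for CENPE, -1.85 for GAS2L3, 0.081 for MGP, -0.89 for MKI67, -0.50 for PLK1 and -0.39 for TOP2A. Cluster 4 minus control in G1 was -1.35 for CCNB1, -0.30 for FAM83D, 0.071 for MCM5, -1.31 for PLK1, -0.63 for TOP2A and -0.20 for UBE2C, and cluster 3 minus control 0.52 for ID4. Against the other TGFB1 cells, cluster 3 was at -0.0041 for BAMBI, -0.015 for BIN1, 0.10 for ESRP1, -0.021 for FOS and 0.47 for MYC. Against all control cells it was at -0.14 for CCL2, -0.10 for ERRFI1 and -0.86 for MMP1.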

Other observations

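Some genes of untreated primed cells were not matched in cluster 4. NGFR, a neurotrophin receptor, stood at 84.5/113 CPM in untreated primed cells (control cells of cluster 10, r1/r2), 5.01/13.9 in cluster 4 and 0.404/2.77 in control cells. IL24, a cytokine, stood at 18.5/16.3, 0.405/1.06 and 0.117/0.244 CPM in the same order, and TIMP3, an inhibitor of matrix proteases, at 1750.1/1446, 346/326 and 408/394 CPM. VGF stood at 1506/1815, 134/387 and 784/1341 CPM. For all 4 genes untreated primed cells lay above cluster 4 in both replicates. ERMN, AQP1 and COL5A1 lay the other way, with AQP1 at 12.1/36.0 CPM in untreated primed cells against 75.8/77.9 in cluster 4. The values rest on 89 and 159 untreated primed cells and were not tested. The authors drew clusters 4 and 10 on these same counts, so genes that tell the clusters apart have to differ here. Treatment and cluster cannot be told apart in this comparison, and the values are a description.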
